A study of Homo sapiens with 15 samples.

Results

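Transcript levels of 10 stress effector genes that the transcription factor ATF4 controls are described here in the Molm-13 leukemia line: ATF3, DDIT3, TRIB3, DDIT4, SESN2, ASNS, CHAC1, STC2, INHBE and ADM2. The genes were taken by symbol from the deposited expression table, and they are 10 of its 20375 genes. They were chosen because earlier results of the same libraries had shown them lower after cytarabine, so their levels against untreated control are given as a description, with no test. Comparisons that did not serve to choose them were tested, although these share the cytarabine libraries with the ones that did. The tests and the lists of other genes were likewise chosen with earlier results of these data known.

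ATF4 is a leucine zipper factor of the integrated stress response. When amino acids run short, unfolded protein builds up in the endoplasmic reticulum, double-stranded RNA appears or heme is lacking, a kinase phosphorylates the translation factor eIF2α, general translation slows, and ATF4 mRNA is translated better. ATF4 pairs with C/EBP and other leucine zipper proteins and switches on genes of amino acid uptake and synthesis, together with feedback and death genes such as TRIB3, DDIT3 and CHAC1. In leukemia ASNS is a well-known gene of the pathway, since leukemic cells that make little asparagine are sensitive to asparaginase.

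Polyadenylated RNA was sequenced from 5 groups of 3 libraries each. Molm-13 was derived from a human acute myeloid leukemia of monocytic type, with an internal tandem duplication in FLT3. Control cells grew untreated for 4 days, while the cytarabine groups were held in the drug, a nucleoside analog of the chemotherapy of leukemia, at 0.5 or 1 µM over the same time. In the FL-Fc-DM1 groups cytarabine at 0.5 or 1 µM was removed after 3 days, and FL-Fc-DM1 was added at 1 nM over the following 24 hours. The labels do not write out this name, in which DM1 is the usual term for the tubulin binder mertansine and FL often stands for FLT3 ligand. Set against cytarabine alone, these groups therefore differ by the removal of cytarabine as well as by the new agent. Below, rose or fell with FL-Fc-DM1 means higher or lower than in the cytarabine group of the same dose. These words state neither a change over time nor an effect of the agent alone. The treatment text in the labels speaks of THP-1 cells for the FL-Fc-DM1 groups, where titles, cell line entries and the design text say Molm-13. In bulk RNA, fewer cells of a kind and less RNA per cell cannot be told apart. Whether a group's libraries stem from separate cultures is not stated in the labels, and the p-values below measure only the spread between these libraries, which may be technical.

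Total counts ran from 10.86 to 16.97 M (mega) per library. Of 10 myeloid markers of the line, 9 reached 1 TPM (transcripts per 1000000) in control and all 10 did in the treated groups. Their summed level was 1320 to 1343 TPM in control, 11530 to 11930 and 9370 to 9597 TPM at 0.5 and 1 µM cytarabine, and 19540 to 20140 and 17940 to 18500 TPM after FL-Fc-DM1, most of it from LYZ. Of 12 markers of other cell types, 3 to 5 per group reached 1 TPM, mainly NKG7 and PECAM1, and their sum was 108.1 to 119.4 TPM in control and 240.7 to 275.3 TPM over the treated groups. EPCAM and PPBP had 0 counts in every group. The order of the groups by the myeloid marker sum was the inverse of their order by the mean summed level of the stress effectors given below. In the latter order, cytarabine at 0.5 µM (119.6 ± 2.43 TPM, SD) and FL-Fc-DM1 at the higher dose (116.2 ± 7.75 TPM) were not clearly apart. Of the 10 markers, 1 was lower than control at 0.5 µM cytarabine, by a log2 fold change of -1.845. The part of the marker sum in the levels of the effectors was not tested.

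The DNA element through which ATF4 acts in most of its targets is a composite site bound by ATF4 together with a C/EBP partner. It was searched as TGATGNAA on either strand, 250 bases before to 50 bases after the RefSeq start of each gene (assembly GRCh38.p14). Of the 10 genes, 9 had at least 1 promoter window, INHBE being the other, and 3 of these 9 (33.3%) held the element: ASNS, CHAC1 and ATF3. The share was 31.2% of 32 other ATF4 targets, 2.79% of the 9934 tested genes with a window and 3.62% of all 35116 windows. The cAMP response element TGACGTCA was in 0 of 9 against 3.84% of tested genes, so none of the matches overlapped one. The windows with a match are printed with the matched bases in capitals, on the strand of the gene. They are chr7:97872359-97872658 (minus strand) for ASNS, chr15:40953221-40953520 (plus strand) for CHAC1 and chr1:212565157-212565456 (plus strand) for ATF3. The window of DDIT4, chr10:72273674-72273973 (plus strand), is shown for contrast, as it has no match. Among the 10 genes, DDIT4 had the smallest adjusted p when FL-Fc-DM1 groups were set against cytarabine.
ASNS: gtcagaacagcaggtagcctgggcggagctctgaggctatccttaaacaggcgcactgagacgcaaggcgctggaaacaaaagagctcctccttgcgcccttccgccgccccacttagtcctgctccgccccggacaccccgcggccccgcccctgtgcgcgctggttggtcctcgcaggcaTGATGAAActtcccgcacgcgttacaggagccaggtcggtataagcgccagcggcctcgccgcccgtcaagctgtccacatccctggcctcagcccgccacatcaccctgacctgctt
CHAC1: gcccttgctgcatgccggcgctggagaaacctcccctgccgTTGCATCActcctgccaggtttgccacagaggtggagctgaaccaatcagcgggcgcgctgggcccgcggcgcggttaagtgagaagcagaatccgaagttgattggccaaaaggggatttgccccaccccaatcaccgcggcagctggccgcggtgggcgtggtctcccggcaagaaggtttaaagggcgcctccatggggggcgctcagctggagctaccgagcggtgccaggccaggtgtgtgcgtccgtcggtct
ATF3: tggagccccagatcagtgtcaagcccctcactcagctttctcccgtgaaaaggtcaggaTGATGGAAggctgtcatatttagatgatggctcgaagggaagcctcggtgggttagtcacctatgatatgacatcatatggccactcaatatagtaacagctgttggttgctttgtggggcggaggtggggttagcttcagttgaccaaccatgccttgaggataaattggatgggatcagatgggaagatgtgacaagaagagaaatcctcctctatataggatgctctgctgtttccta
DDIT4: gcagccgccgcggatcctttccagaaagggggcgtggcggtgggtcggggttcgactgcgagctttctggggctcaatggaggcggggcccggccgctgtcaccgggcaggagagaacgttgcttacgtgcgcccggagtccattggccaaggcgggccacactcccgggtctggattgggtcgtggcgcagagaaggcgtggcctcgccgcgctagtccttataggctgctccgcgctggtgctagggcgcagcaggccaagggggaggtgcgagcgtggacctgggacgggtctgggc

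The element lay 68 to 61 bases before the start of ASNS, where it read TGATGAAA. In ATF3 it read TGATGGAA at 191 to 184 bases before the start. In CHAC1 it lay on the other strand, 209 to 202 bases before the start, and reads TTGCATCA as printed. A match is a match of letters only, and other windows of ASNS and ATF3 held none.

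**Figure D1:**
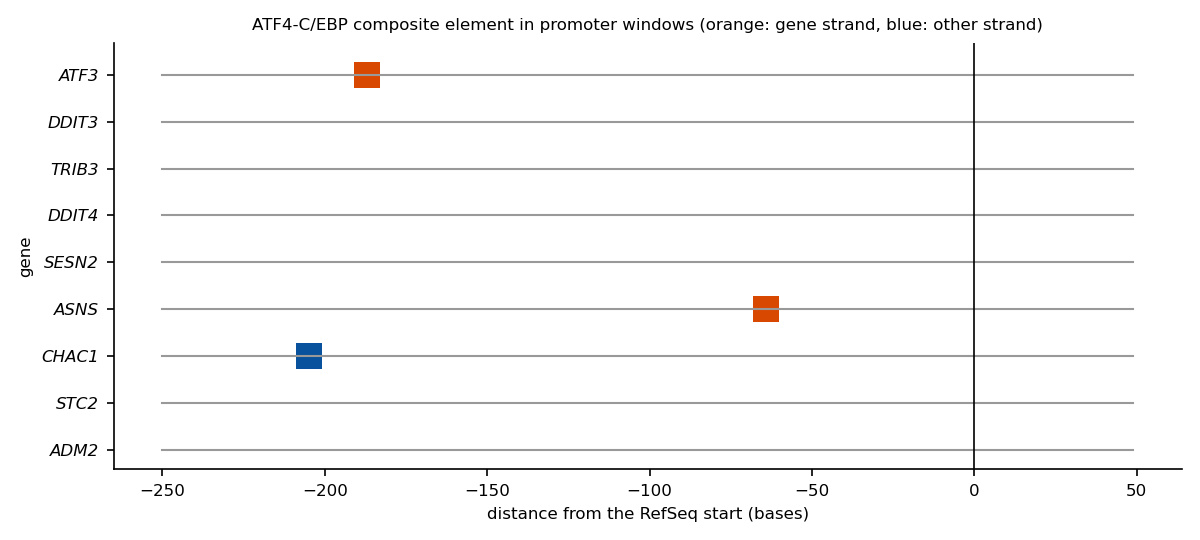
Positions of the element TGATGNAA in the promoter windows of the 9 genes with a RefSeq window, in bases from the start (x axis); each line is a gene's window or windows, aligned at the start, and each bar a match. Matches are at 68 to 61 bases before the start in ASNS, 191 to 184 in ATF3 and 209 to 202 in CHAC1.

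All 10 stress effectors were lower in every library of each treated group than in every control library. This holds by the way they were chosen, and groups that do not overlap in this direction were seen for 38.2% of the 12355 tested genes at 0.5 µM cytarabine, 37.8% at 1 µM, 37.6% after FL-Fc-DM1 at the lower dose and 36.1% at the higher. Their median log2 difference from control was -3.56, -3.69, -3.57 and -3.38 in the same order, beside medians of 0.032, 0.031, 0.018 and 0.009 over all tested genes. Summed over the 10 genes, the level was 826 ± 11.1 TPM in control (SD, n = 3 here and below), 119.6 ± 2.43 and 139.7 ± 2.89 TPM at 0.5 and 1 µM cytarabine, and 99.85 ± 2.32 and 116.2 ± 7.75 TPM after FL-Fc-DM1. All 10 passed the filter on low counts, INHBE only through its control libraries. INHBE is kept in the counts and medians over the 10 genes among treated groups below.

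**Figure D2:**
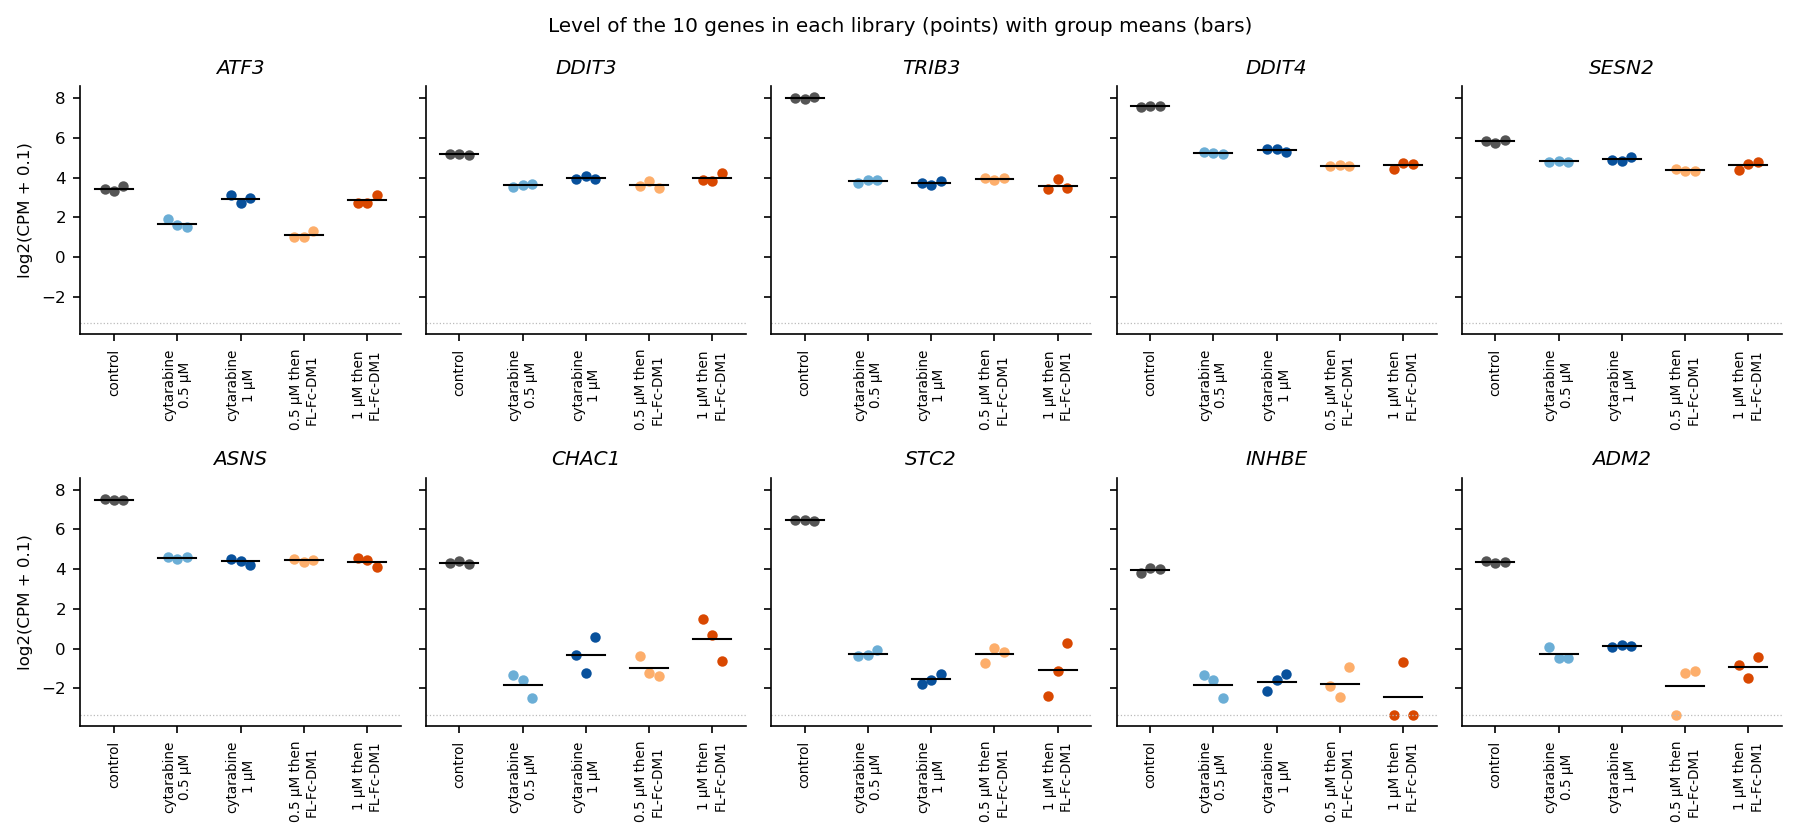
Level of each gene as log2(CPM + 0.1) on the y axis, with CPM for counts per 1000000, in the 15 libraries (points) of the 5 groups on the x axis; bars are means of the log values and the dotted line marks 0 counts. Every treated library is below the control libraries for all 10 genes, and CHAC1, STC2, INHBE and ADM2 lie between 0 and 2.66 CPM in all treated libraries.

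By length-adjusted level, TRIB3 led in control with 232.9 ± 3.98 TPM, followed by DDIT4 with 209.1 ± 1.91, ASNS with 179.1 ± 3.23 and DDIT3 with 73.1 ± 1.66 TPM. STC2 (43.65 ± 2.9), SESN2 (30.3 ± 1.36) and CHAC1 (24.4 ± 1.78) came next, and ATF3 (13.3 ± 1.71), INHBE (11.6 ± 0.907) and ADM2 (8.75 ± 0.39) were lowest. Only ATF3 and INHBE, among neighbours in this order, had overlapping control libraries. The order was different in treated cells. TRIB3 made up 28.2% of the summed TPM in control and 10.6% at 0.5 µM cytarabine, where it stood at rank 5. DDIT4 led both cytarabine groups with 39.4 ± 2.40 and 45.4 ± 0.76 TPM. After FL-Fc-DM1 at the higher dose DDIT3 had 31.8 ± 4.76, DDIT4 26.5 ± 3.12 and ASNS 22.8 ± 0.682 TPM, and the libraries of neighbours in this order overlapped.

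Of the transcription factors, ATF3 differed most between the doses. ATF3 is a stress-induced leucine zipper factor and partner of other ATF and JUN proteins. It stood at 10.6, 9.88 and 11.6 CPM in the control libraries, 3.70, 2.92 and 2.75 CPM at 0.5 µM cytarabine and 8.52, 6.55 and 7.61 CPM at 1 µM. After FL-Fc-DM1 it was 1.92, 1.91 and 2.35 CPM at the lower pretreatment dose and 6.51, 6.48 and 8.55 CPM at the higher. The groups of different dose did not overlap, and those of 1 µM lay closest to control, at a log2 difference of -0.50 for cytarabine and -0.58 for FL-Fc-DM1 against -1.77 and -2.37 at 0.5 µM. ATF3 rose from 0.5 to 1 µM cytarabine by a log2 fold change of 1.28 ± 0.18 (SE; edgeR quasi-likelihood test, Benjamini-Hochberg adjusted p = 9.5e-06). It was likewise higher after FL-Fc-DM1 at the higher dose than at the lower, by 1.79 ± 0.20 (edgeR, adjusted p = 1.76e-07). In FL-Fc-DM1 against cytarabine ATF3 was lower at 0.5 µM, by -0.59 ± 0.22 (edgeR, adjusted p = 0.0308), and this call was lost without replicate 1 of the cytarabine group (adjusted p = 0.172), without replicate 1 (0.0972) or 2 (0.104) of the FL-Fc-DM1 group, and with no filter on low counts (0.05). The authors' TPM gave -0.30 for it. At 1 µM the difference was -0.082, with a 95% interval from -0.42 to 0.25 on the log2 scale.

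DDIT3 encodes CHOP, a leucine zipper factor of the death arm of the stress response. It was measured at 35.7, 36.5 and 35.5 CPM in control, 11.6, 12.4 and 12.6 CPM at 0.5 µM cytarabine and 14.9, 16.9 and 15.1 CPM at 1 µM. After FL-Fc-DM1 it stood at 12.0, 13.9 and 10.9 CPM and at 14.5, 14.1 and 18.6 CPM. As with ATF3, both groups of 1 µM lay above those of 0.5 µM with no overlap. The step between doses was small, 0.36 ± 0.11 for cytarabine (edgeR, Benjamini-Hochberg adjusted p = 0.0237) and 0.36 ± 0.12 after FL-Fc-DM1 (adjusted p = 0.0187). The first of these calls was lost without replicate 1 (0.0915) or 2 (0.0543) of the 0.5 µM group or replicate 2 of the 1 µM group (0.0884). The second was lost without replicate 1 (0.065) or 3 (0.116) of the lower-dose group or replicate 3 of the higher-dose group (0.145), and when only those groups were fitted (0.0713). FL-Fc-DM1 against cytarabine gave 0.003 at 0.5 µM (95% interval -0.24 to 0.24) and 0.010 at 1 µM (-0.22 to 0.24). MARS1 and 2 further genes of the RefSeq annotation overlap DDIT3, and the counting is not stated to use strand, so reads of overlapping genes may be mixed in its counts.

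TRIB3 is a pseudokinase that binds ATF4 and AKT and restrains the response that induces it. Its control libraries held 256, 251 and 263 CPM, against 13.2, 14.6 and 14.7 CPM at 0.5 µM cytarabine and 13.4, 12.1 and 14.3 CPM at 1 µM. FL-Fc-DM1 libraries held 15.6, 14.5 and 15.6 CPM at the lower dose and 10.5, 15.0 and 10.8 CPM at the higher. The 4 treated groups were within a narrow band, 16.9-fold to 21.1-fold under control. FL-Fc-DM1 differed from cytarabine by 0.10 at 0.5 µM (95% interval -0.10 to 0.31) and by -0.13 at 1 µM (-0.35 to 0.097). Without replicate 2 of the higher-dose FL-Fc-DM1 group, the one at 15.0 CPM, the latter became -0.30 (edgeR, Benjamini-Hochberg adjusted p = 0.0242). TRIB3 was lower after FL-Fc-DM1 at the higher dose than at the lower, by -0.32 ± 0.11 (edgeR, adjusted p = 0.0255), a call that was lost with only those groups fitted (0.108), with limma voom (0.0801) and without replicate 1 (0.0541) or 3 (0.0784) of the lower-dose group or replicate 1 (0.139) or 3 (0.113) of the higher-dose group.

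The inhibitors of mTORC1, the kinase complex that couples growth to amino acids, were both lower with FL-Fc-DM1 than with cytarabine at both doses. DDIT4, also called REDD1, restrains mTORC1 through the TSC complex. Control libraries held 189, 196 and 192 CPM of DDIT4, those at 0.5 µM cytarabine 38.7, 37.5 and 35.8 CPM, and those at 1 µM 42.5, 43.9 and 38.9 CPM. After FL-Fc-DM1 it was 23.7, 24.5 and 23.7 CPM at the lower dose and 21.4, 26.3 and 25.8 CPM at the higher. All 6 FL-Fc-DM1 libraries lay below all 6 cytarabine libraries. The log2 fold change of FL-Fc-DM1 against cytarabine was -0.64 ± 0.071 at 0.5 µM (edgeR quasi-likelihood test, Benjamini-Hochberg adjusted p = 5.52e-08) and -0.77 ± 0.071 at 1 µM (adjusted p = 2.44e-09). Between the cytarabine doses DDIT4 differed by 0.16 ± 0.065 (edgeR, adjusted p = 0.0829), which passed without replicate 3 of the 1 µM group (0.21, adjusted p = 0.0411) or without replicate 1 of the higher-dose FL-Fc-DM1 group (0.0473), and between the FL-Fc-DM1 groups by 0.035 (95% interval -0.13 to 0.20).

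SESN2, a sestrin that senses leucine and holds back mTORC1 through GATOR2, showed the mildest difference from control at 0.5 µM. It stood at 57.2, 54.0 and 59.1 CPM in control, 27.6, 28.5 and 27.9 CPM at 0.5 µM cytarabine, and 29.4, 28.5 and 32.3 CPM at 1 µM. After FL-Fc-DM1 it reached 21.4, 20.0 and 19.9 CPM and 21.1, 25.3 and 27.6 CPM. Each FL-Fc-DM1 group lay below its cytarabine group without overlap. The fall was -0.45 ± 0.086 at 0.5 µM (edgeR, Benjamini-Hochberg adjusted p = 0.000117) and -0.29 ± 0.084 at 1 µM (adjusted p = 0.00718). The latter became -0.19 with an adjusted p of 0.071 when replicate 1 of the higher-dose FL-Fc-DM1 group was left out. SESN2 was higher after FL-Fc-DM1 at the higher dose than at the lower by 0.27 ± 0.09 (edgeR, adjusted p = 0.0248), which was lost with only those groups fitted (0.0799), with limma voom (0.0672) and without replicate 2 (0.0898) or 3 (0.0862) of the lower-dose group or replicate 2 (0.0716) or 3 (0.152) of the higher-dose group, whereas the cytarabine doses differed by 0.11 (95% interval -0.061 to 0.27).

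**Figure D3:**
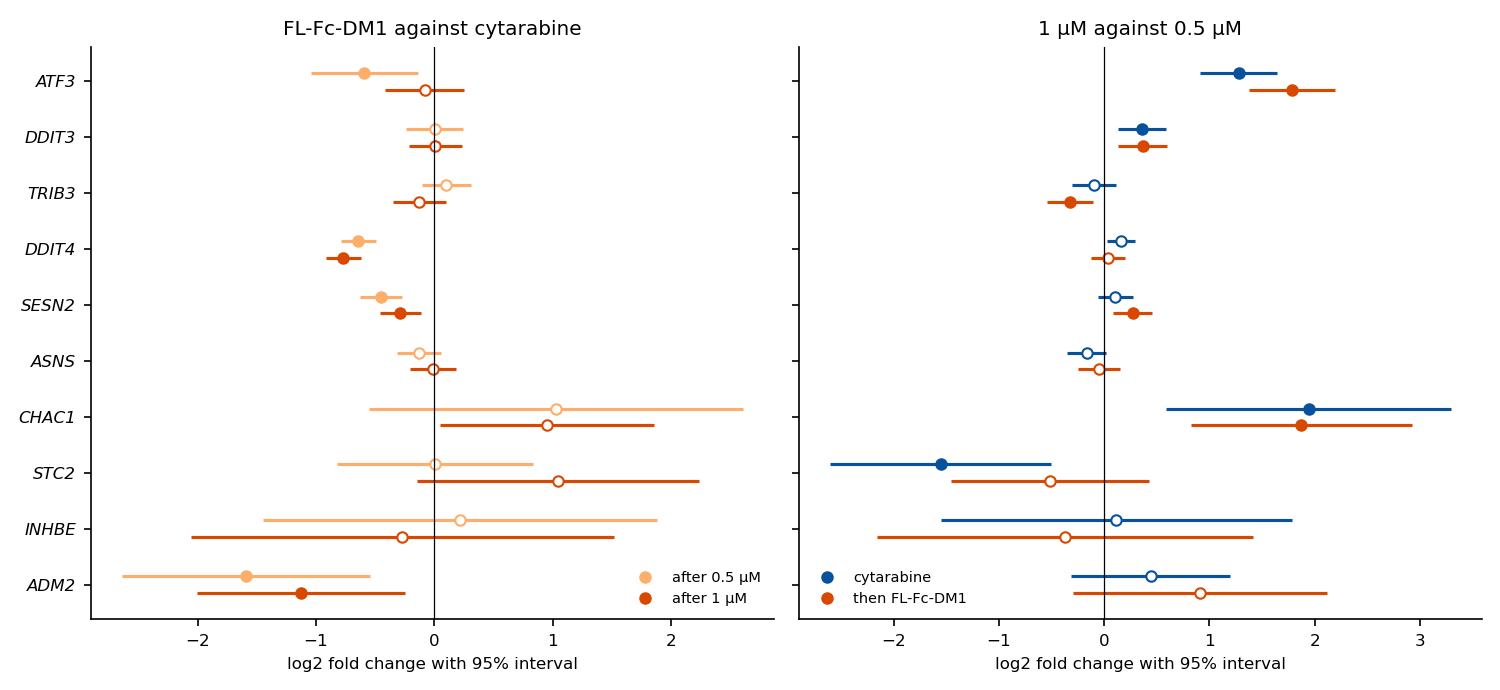
Log2 fold changes (points) with 95% intervals (lines) on the x axis for each gene on the y axis, comparing FL-Fc-DM1 with cytarabine at both pretreatment doses (left) and for 1 against 0.5 µM in both kinds of group (right); filled points passed a Benjamini-Hochberg adjusted p of 0.05 and open points did not. DDIT4, SESN2 and ADM2 lie below 0 at both doses on the left, and ATF3, CHAC1 and DDIT3 above 0 in both kinds of group on the right.

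Of the enzymes, ASNS stayed at a like level in all treated groups while CHAC1 was close to the limit of detection. ASNS makes asparagine from aspartate and glutamine. It stood at 184, 179 and 179 CPM in control, 23.9, 22.2 and 24.4 CPM at 0.5 µM cytarabine and 22.8, 21.4 and 18.3 CPM at 1 µM. FL-Fc-DM1 libraries held 22.7, 20.0 and 21.8 CPM and 23.6, 21.5 and 17.3 CPM, so that all 4 treated groups overlapped and were 7.68-fold to 8.69-fold under control. No comparison among treated groups was called for ASNS. FL-Fc-DM1 differed from cytarabine by -0.13 at 0.5 µM (95% interval -0.32 to 0.06) and by -0.010 at 1 µM (-0.21 to 0.19). The readthrough gene CZ1P-ASNS and 2 other annotated genes overlap ASNS, and its reads may be split with them.

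CHAC1, a cyclotransferase that degrades glutathione, had 315, 291 and 324 counts in the control libraries. It had 4, 3 and 1 counts at 0.5 µM cytarabine, and 11, 4 and 18 at 1 µM. The FL-Fc-DM1 libraries had 8, 4 and 4 counts at the lower dose and 29, 17 and 6 at the higher. By pooled counts CHAC1 was 97.6-fold under control at 0.5 µM cytarabine (95% counting interval 49.3 to 227) and 24.6-fold (17.4 to 35.9) at 1 µM. The dose groups differed by 1.94 ± 0.66 for cytarabine (edgeR, Benjamini-Hochberg adjusted p = 0.0381) and 1.87 ± 0.51 for FL-Fc-DM1 (adjusted p = 0.00722), both higher at the higher dose. These calls rest on few counts. The first was lost with limma voom (0.0711), and without replicate 1 (0.057), 2 (0.083) or 3 (0.153) of the 0.5 µM group or replicate 1 (0.0571) or 3 (0.234) of the 1 µM group, and the second was lost without replicate 1 of the higher-dose group (0.0915). FL-Fc-DM1 against cytarabine was not called at 0.5 µM (1.03, 95% interval -0.55 to 2.61) or at 1 µM (0.96 ± 0.44, edgeR adjusted p = 0.0781). The value at 1 µM passed with no filter on low counts (0.97, adjusted p = 0.0151), without replicate 3 of the cytarabine group (1.55, adjusted p = 0.015) and without replicate 3 of the FL-Fc-DM1 group (1.37, adjusted p = 0.00761). By pooled counts CHAC1 with FL-Fc-DM1 was at 2.08 times cytarabine at 0.5 µM (95% counting interval 0.84 to 5.62). At 1 µM it was at 1.95 times (1.24 to 3.12), an interval of counting error only.

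Of the secreted members, STC2 had the largest estimated fold under control of all 10 genes in each treated group. Its counting interval was clear of those of all the others only at 1 µM cytarabine. STC2, stanniocalcin 2, is a stress-induced glycoprotein hormone. Its control libraries held 1427, 1218 and 1470 counts, against 9, 9 and 11 at 0.5 µM cytarabine and 3, 3 and 4 at 1 µM. FL-Fc-DM1 libraries held 6, 11 and 11 counts at the lower dose and 1, 4 and 12 at the higher. STC2 was thus 119-fold (95% counting interval 82.8 to 178) and 359-fold (195 to 749) under control at 0.5 and 1 µM cytarabine. It was lower at 1 than at 0.5 µM cytarabine by -1.55 ± 0.51 (edgeR, Benjamini-Hochberg adjusted p = 0.0326), with no overlap. That call was lost with limma voom (0.0936) and without any 1 of the 6 libraries compared (adjusted p from 0.0508 without replicate 3 of the 1 µM group to 0.115 without replicate 1 of it). FL-Fc-DM1 against cytarabine gave 0.007 (95% interval -0.82 to 0.83) at 0.5 µM and 1.05 (-0.15 to 2.24) at 1 µM. The value at 1 µM turned with single libraries, to 1.53 (adjusted p = 0.0189) without replicate 1 and to -0.10 without replicate 3 of the FL-Fc-DM1 group. Against the lower-dose FL-Fc-DM1 group the higher-dose group differed by -0.52 (95% interval -1.46 to 0.43), and by -1.68 (adjusted p = 0.0247) without the same replicate 3.

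INHBE, the inhibin beta E chain that forms activin E, is known mainly from liver. It had 225, 230 and 274 counts in control, 4, 3 and 1 at 0.5 µM cytarabine, 2, 3 and 4 at 1 µM, 2, 1 and 6 after FL-Fc-DM1 at the lower dose, and 0, 6 and 0 at the higher. No library of a treated group exceeded 6 counts. Pooled counts put INHBE 76.5-fold (95% counting interval 38.6 to 178) and 70.6-fold (37.0 to 155) under control in the cytarabine groups. Differences among the treated groups were not detectable at this depth, with a 95% interval from -1.45 to 1.88 on the log2 scale at 0.5 µM and from -2.06 to 1.52 at 1 µM when FL-Fc-DM1 was set against cytarabine. Replicate 2 held all counts of the higher-dose FL-Fc-DM1 group, and without it no fold change can be read there.

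ADM2, or intermedin, is a peptide hormone of the calcitonin family. It had 336, 270 and 349 counts in control, 13, 8 and 8 at 0.5 µM cytarabine and 15, 13 and 13 at 1 µM. After FL-Fc-DM1 it had 0, 4 and 5 counts at the lower dose and 5, 3 and 7 at the higher. FL-Fc-DM1 libraries lay below the cytarabine libraries of their dose without overlap. ADM2 fell by 1.59 on the log2 scale at 0.5 µM (SE 0.51; edgeR, Benjamini-Hochberg adjusted p = 0.0128) and by 1.13 at 1 µM (SE 0.43; adjusted p = 0.0332). Pooled counts gave 3.10-fold (95% counting interval 1.43 to 7.44) and 2.21-fold (1.20 to 4.29). The first call was lost without replicate 1 of the cytarabine group (0.0733) or replicate 1 of the FL-Fc-DM1 group (0.0888), whose value was then -1.05. The second was lost with only those groups fitted (0.155), with limma voom (0.222), without replicate 1 (0.0529), 2 (0.0657) or 3 (0.0592) of the cytarabine group, and without replicate 1 (0.0645) or 2 (0.147) of the FL-Fc-DM1 group.

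Counted over the 10 genes, FL-Fc-DM1 against cytarabine at 0.5 µM gave 4 lower (ADM2, DDIT4, SESN2 and ATF3) and 0 higher, where 22.8% and 22% of all tested genes were called in these directions. These 4 did not overlap between the groups, as 30.1% of tested genes did not in this direction. At 1 µM, 3 were lower (ADM2, DDIT4 and SESN2) and 0 higher, against 22.2% and 23.5% of tested genes, and these 3 did not overlap, beside 22.8% of tested genes. At an unadjusted p under 0.05 edgeR gave 0 higher at 0.5 µM and 1 at 1 µM, and DESeq2 and limma voom gave 0 higher at either dose. The median log2 fold change of the 10 genes was -0.062 at 0.5 µM and -0.10 at 1 µM, beside -0.024 and -0.004 over all tested genes. Thus, in the main fit, none of the stress effectors was called nearer to control with FL-Fc-DM1 than in cells kept in cytarabine for 4 days. CHAC1 at 1 µM was called so in some alternatives, and few counts limit CHAC1, STC2, INHBE and ADM2 here. No group was sampled when cytarabine was removed, so change over the 24 hours was not measured. The other 6 genes at 0.5 µM and 7 at 1 µM had no call. INHBE is among them, and with at most 6 counts in a treated library it could hardly be called.

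Going from 0.5 to 1 µM cytarabine, 3 of 10 were higher (CHAC1, DDIT3 and ATF3) and 1 lower (STC2), against 9.08% and 10.3% of tested genes. Libraries did not overlap for 5 higher genes (these 3, DDIT4 and SESN2) and for STC2, beside 16.5% and 18.5% of tested genes. Between the FL-Fc-DM1 groups 4 were higher at the higher dose (CHAC1, DDIT3, SESN2 and ATF3) and 1 lower (TRIB3), against 14.3% and 14% of tested genes. Of these, DDIT3 and ATF3 had no overlap, beside 18.3% of tested genes. CHAC1, DDIT3 and ATF3 were called higher in both dose comparisons. How many of all tested genes were called higher in both was not counted. The dose comparisons have no library in common but share 1 fit and its estimate of the spread. As given above, the calls of CHAC1 and DDIT3 were lost on leaving out single libraries. The change with FL-Fc-DM1 was not called different between the doses for any of the 10 (0 with edgeR, DESeq2 and limma voom, and 0 at an unadjusted p under 0.05), where 3.07% of all tested genes were called in either direction. INHBE counts among the 10 here, although its few counts left little scope for a call. The smallest p was that of ATF3, with a difference of 0.51 ± 0.27 (edgeR, Benjamini-Hochberg adjusted p = 0.383). Replicates of the 1 µM groups were further apart than those of the other groups, with a chi-square per degree of freedom of 3.37 to 4.97 against 1.75 to 2.39 between libraries of a group.

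ATF4 mRNA was itself lower after cytarabine, although by less than most of its effectors. It stood at 427 ± 19.8 CPM in control, 204 ± 4.98 and 206 ± 11.7 CPM at 0.5 and 1 µM cytarabine, and 190.5 ± 8.16 and 186 ± 8.02 CPM after FL-Fc-DM1. The log2 fold change against control was -1.06 ± 0.043 at 0.5 µM and -1.05 ± 0.043 at 1 µM (edgeR, Benjamini-Hochberg adjusted p = 1.43e-17 and 1.51e-17). It was lower after FL-Fc-DM1 than after cytarabine at 1 µM by -0.15 ± 0.046 (adjusted p = 0.011) but not detectably at 0.5 µM (-0.10, adjusted p = 0.077). ATF4 protein, which is set largely by translation, was not measured.

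Of the kinases that phosphorylate eIF2α, EIF2AK2 (PKR, which senses double-stranded RNA) rose with cytarabine, EIF2AK3 (PERK, of the endoplasmic reticulum) fell, and EIF2AK1 (the heme-regulated kinase) and EIF2AK4 (GCN2, the amino acid sensor) were not called. EIF2AK2 was at 64.8 ± 1.17 CPM in control and at 135 ± 3.89 and 184 ± 7.02 CPM at 0.5 and 1 µM cytarabine. It was lower after FL-Fc-DM1, at 83.6 ± 2.40 and 118 ± 11.8 CPM (edgeR, Benjamini-Hochberg adjusted p = 1.43e-10 and 1.72e-10 against cytarabine). EIF2AK3 went from 28.8 ± 2.02 to 17.8 ± 0.0389 and 18.9 ± 1.01 CPM, at log2 fold changes of -0.69 and -0.61. EIF2AK4 was at 63.7 ± 3.18 CPM in control and 65.9 ± 0.798 and 66.4 ± 5.12 CPM after cytarabine, and fell with FL-Fc-DM1 by -0.17 at 0.5 µM (adjusted p = 0.042) and by -0.29 at 1 µM (adjusted p = 0.00119). The phosphatase subunits that undo the mark were lower after cytarabine: PPP1R15A (GADD34) by -0.83 and -0.73, and PPP1R15B (CReP) by -0.78 and -0.65. PPP1R15A was higher with FL-Fc-DM1 than with cytarabine, by 0.43 ± 0.078 (edgeR, adjusted p = 7.62e-05) and 0.34 ± 0.078 (adjusted p = 0.000849).

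The list of 14 genes of the kinases, eIF2, its exchange factor and its phosphatases had 1 higher and 8 lower at 0.5 µM cytarabine, and 1 higher and 10 lower at 1 µM, where 38% and 39.3% of tested genes were higher and 35.2% and 36.6% lower. EIF2S1, which encodes eIF2α, fell by -0.95 ± 0.043 at 0.5 µM. With FL-Fc-DM1, 7 of the 14 were higher and 3 lower at 0.5 µM and 6 higher and 3 lower at 1 µM. The shares over all tested genes were 22% and 23.5% higher and 22.8% and 22.2% lower. EIF2S1 rose by 0.38 and 0.43 and GCN1, the partner of GCN2, by 0.33 and 0.17. IMPACT, an inhibitor of GCN2, fell with FL-Fc-DM1 by -0.12 (adjusted p = 0.028) and -0.20 (adjusted p = 0.00123; edgeR, Benjamini-Hochberg). The exchange factor genes EIF2B1, EIF2B3 and EIF2B5 were called lower after both cytarabine doses and higher with FL-Fc-DM1 at both, with EIF2B1 at 92.6 ± 3.09, 73.9 ± 0.331, 63.2 ± 2.33, 94.1 ± 5.16 and 83.0 ± 2.90 CPM in the order of control, cytarabine at 0.5 and 1 µM and FL-Fc-DM1 after each. EIF2B4 was called in none of these comparisons, and EIF2B2 was called lower at 1 µM cytarabine (-0.31, adjusted p = 0.00622).

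Of 18 tested leucine zipper factors that can pair with ATF4, 4 were higher and 10 lower at 0.5 µM cytarabine, and 5 higher and 9 lower at 1 µM. The shares over all tested genes were 38% and 39.3% higher and 35.2% and 36.6% lower. CEBPG, the C/EBP partner of ATF4 at amino acid response genes, fell from 356 ± 6.90 to 142.5 ± 1.84 and 132 ± 4.72 CPM and was not called with FL-Fc-DM1 (0.040 and 0.011). CEBPB, another partner, moved the other way, from 20.3 ± 0.555 to 41.0 ± 4.81 and 57.8 ± 1.71 CPM, and fell with FL-Fc-DM1 to 28.0 ± 2.59 and 36.2 ± 2.29 CPM. NFE2L1, a regulator of proteasome genes, fell by -0.73 and -0.70. FL-Fc-DM1 against cytarabine gave 8 higher and 1 lower of the 18 at 0.5 µM and 6 and 2 at 1 µM. Here 22% and 23.5% of all tested genes were higher and 22.8% and 22.2% lower. FOS rose by 0.96 ± 0.067 and 0.54 ± 0.07 and FOSL2 by 0.32 ± 0.036 and 0.25 ± 0.037.

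The remaining known targets of ATF4, a list of 41 genes chosen with earlier results known, had 40 tested genes. At 0.5 µM cytarabine 36 of the 40 were lower and 3 higher, and at 1 µM 35 lower and 4 higher (edgeR quasi-likelihood test, Benjamini-Hochberg over all tested genes). Of all tested genes 35.2% and 36.6% were lower and 38% and 39.3% higher. Because of how the list was chosen, its counts are a description, against control and with FL-Fc-DM1 alike. Their median log2 fold changes were -1.72 and -1.84, and single genes ran from -6.715 to 2.052 and from -7.141 to 3.304. The 3 genes named next are those of smallest p at 0.5 µM, and all of them fell. PSAT1, which acts in the making of serine, dropped from 590 ± 12.3 to 41.1 ± 2.81 and 35.5 ± 1.70 CPM. SLC7A5, the light chain of the LAT1 amino acid transporter, fell from 465 ± 6.53 to 57.2 ± 0.971 and 69.3 ± 3.32 CPM, and VEGFA, the vascular growth factor, from 429 ± 11.9 to 52.7 ± 2.92 and 41.8 ± 1.37 CPM.

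Part of the other targets were higher with FL-Fc-DM1 than with cytarabine. At 0.5 µM 16 of 40 were higher and 7 lower than with cytarabine, and at 1 µM 14 were higher and 7 lower. Of all tested genes 22% and 23.5% were higher and 22.8% and 22.2% lower. Among the 10 effectors 0 were higher at either dose. The list was chosen with earlier results known, so its counts here are a description, and the difference between the lists was not tested. Their medians were 0.073 and 0.10. SLC7A5 rose by 0.87 ± 0.048 (edgeR, Benjamini-Hochberg adjusted p = 1.89e-13) and 0.70 ± 0.047 (adjusted p = 5.64e-12). SLC7A1, the cationic amino acid transporter, rose by 0.62 ± 0.05 and 0.62 ± 0.051, and ALDH18A1, an enzyme of proline synthesis, by 0.65 ± 0.055 and 0.27 ± 0.058. At 104.5 ± 4.41 and 113 ± 5.67 CPM, SLC7A5 was still below its control level.

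**Figure D4:**
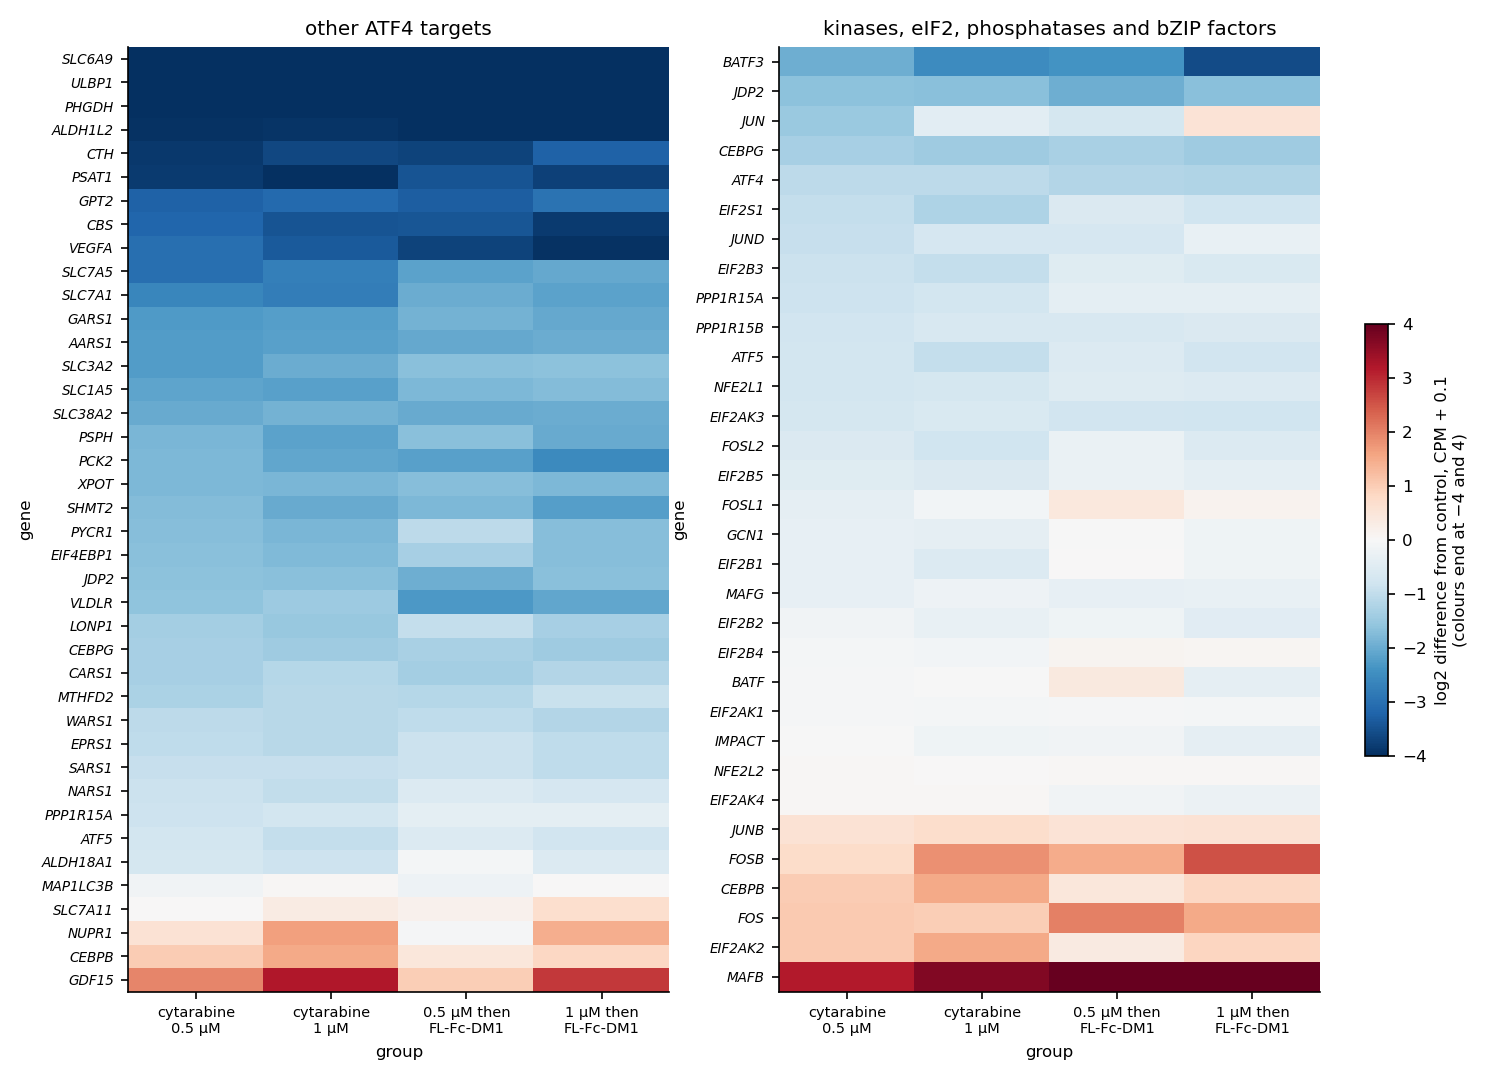
Difference from control in log2(CPM + 0.1) of group means (colour, blue lower and red higher, colours ending at -4 and 4) for the 4 treated groups (columns) and the tested genes (rows) of the other ATF4 targets (left) and of the eIF2 and leucine zipper lists (right), sorted by 0.5 µM cytarabine. Most rows on the left are blue in all 4 columns, and the rows of CEBPB and EIF2AK2 are red.

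The genes whose profile over the 4 treated groups was nearest to the median of the 10 effectors were found among 9450 tested genes with a symbol and at least 10 CPM in a group. Likeness was the root mean square difference of log2(CPM + 0.1) relative to control, and the profile was chosen by level, so it carries no test. RPS6KA2, a ribosomal S6 kinase of the RSK family, was nearest at 0.125. CTH, which makes cysteine from cystathionine, came next at 0.178, then ASS1, which joins citrulline and aspartate on the way to arginine, at 0.253 and PSAT1 at 0.312. CBS, which makes cystathionine, followed at 0.332, then the SRC family kinase FYN at 0.379, the alanine aminotransferase GPT2 at 0.391 and VEGFA at 0.439. Of these 8 genes CTH, PSAT1, CBS, GPT2 and VEGFA stand in the list of other ATF4 targets. RPS6KA2 was at 32.3 ± 1.11 CPM in control and between 2.65 and 2.95 CPM in the means of the treated groups.

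Paralogs of the effectors did not share one direction. Of 14 paralogs listed 10 were tested, with 4 higher and 4 lower at 0.5 µM cytarabine and 5 higher and 4 lower at 1 µM. Of all tested genes 38% and 39.3% were higher and 35.2% and 36.6% lower at these doses. While TRIB3 was lower, TRIB1 rose from 37.3 ± 2.36 to 88.4 ± 2.20 and 113 ± 2.77 CPM and TRIB2 stayed at or under 1.03 CPM in the mean of every group. By TPM, TRIB3 lay above TRIB1 in control and below it in every treated group. While SESN2 was lower, SESN1 rose by 0.80 ± 0.048 and 0.87 ± 0.048 and SESN3 by 2.56 ± 0.091 and 2.14 ± 0.094. With FL-Fc-DM1, SESN1 fell by -0.46 ± 0.048 and -0.43 ± 0.048, as SESN2 did, and SESN3 rose by 0.29 ± 0.071 and 0.36 ± 0.076 (edgeR, Benjamini-Hochberg adjusted p = 0.00167 and 0.000374).

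CHAC2, the constitutive relative of CHAC1, fell by -1.50 ± 0.18 and -2.05 ± 0.19 with cytarabine, and rose with FL-Fc-DM1 at 1 µM by 1.02 ± 0.21 (edgeR, Benjamini-Hochberg adjusted p = 0.000271) but was not called at 0.5 µM (0.42, adjusted p = 0.0838). INHBC, the gene next to INHBE, had 271 counts in the control libraries together and fell by -4.47 ± 0.52 and -3.84 ± 0.48. INHBA, which forms activin A, rose instead, by 0.92 ± 0.10 and 1.18 ± 0.098, and moved with FL-Fc-DM1 by 0.32 ± 0.093 at 0.5 µM and -0.28 ± 0.095 at 1 µM (adjusted p = 0.00691 and 0.0192). JDP2, a repressor related to ATF3, fell by -1.65 and -1.68, and ASNSD1, related to ASNS, by -0.54 and -0.42. ADM, the paralog of ADM2, was at 0.201 ± 0.150 CPM in control and rose at 1 µM cytarabine by 2.70 ± 0.60 (adjusted p = 0.000246). INHA and DDIT4L had 0 counts in every library, STC1 had 2 counts in control and 0 elsewhere, and INHBB had at most 13 counts in a library; these were not tested.

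**Figure D5:**
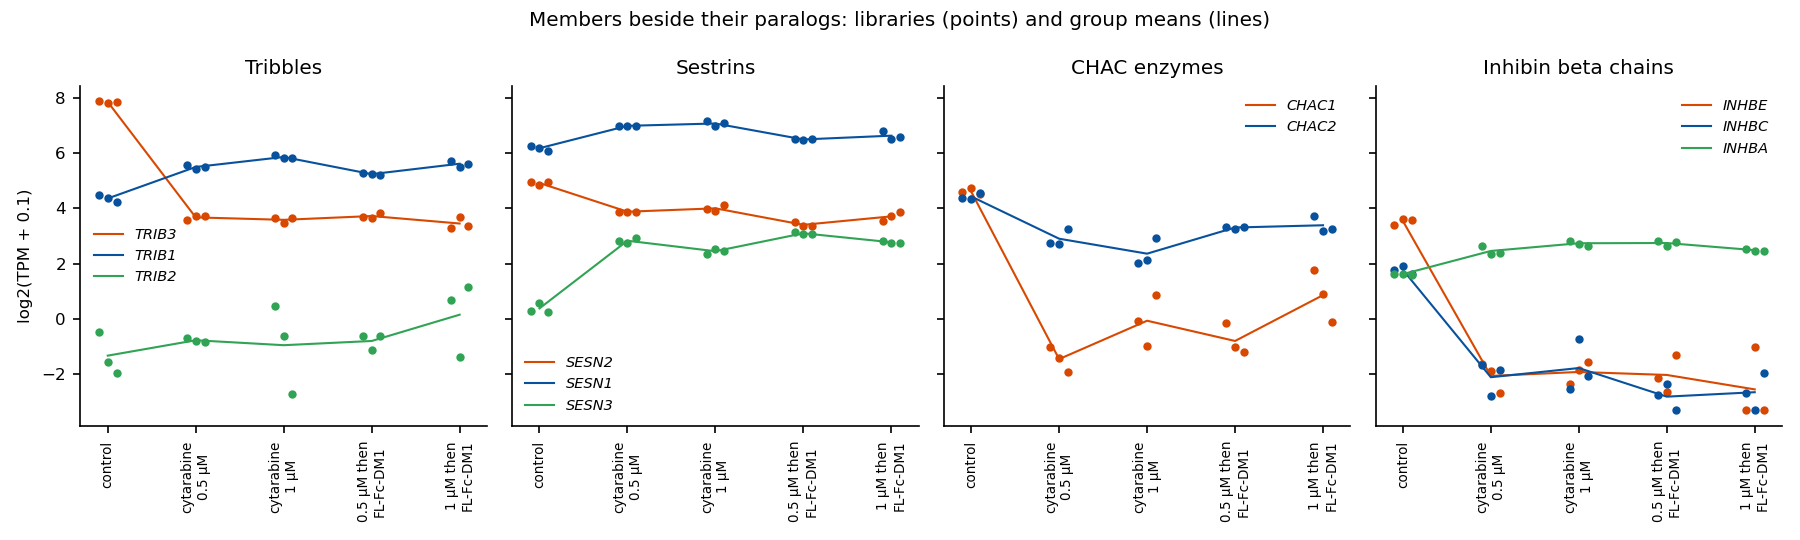
Level as log2(TPM + 0.1) on the y axis in the 5 groups on the x axis for TRIB3, SESN2, CHAC1 and INHBE beside their paralogs; points are libraries and lines join means of the log values. TRIB1, SESN1, SESN3 and INHBA are higher in the cytarabine groups than in control, while TRIB3, SESN2, CHAC1, CHAC2, INHBE and INHBC are lower.

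INHBE and DDIT3 lie close together on chromosome 12, in the order INHBC, INHBE, GLI1, ARHGAP9, MARS1 and DDIT3 in RefSeq. Of the genes between them, MARS1, the methionyl-tRNA synthetase, fell from 294 ± 6.32 to 95.3 ± 2.33 and 112 ± 0.425 CPM. GLI1, a transcription factor of the hedgehog pathway, fell from 1.69 ± 0.154 to 0.354 ± 0.160 and 0.345 ± 0.321 CPM. ARHGAP9, a GTPase activator of blood cells, rose from 40.3 ± 1.53 to 68.3 ± 1.66 and 74.5 ± 0.526 CPM.

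Genes of the endoplasmic reticulum stress response outside the ATF4 branch, 19 in all, were split after cytarabine. At 0.5 µM 6 were higher and 8 lower, and at 1 µM 8 and 8. The shares over all tested genes were 38% and 39.3% higher and 35.2% and 36.6% lower. XBP1, the factor activated by IRE1, fell from 579 ± 10.0 to 189 ± 6.56 and 144 ± 6.99 CPM, and EDEM1, which directs misfolded glycoproteins to disposal, fell by -0.71 and -0.63, while the chaperone CALR rose by 0.65 and 0.61. FL-Fc-DM1 against cytarabine gave 14 of 19 higher and 2 lower at each dose, with medians of 0.40 and 0.44. Here 22% and 23.5% of all tested genes were higher and 22.8% and 22.2% lower. The lumenal chaperone HSPA5 (BiP) rose by 0.74 ± 0.034 and 0.61 ± 0.034, HYOU1 by 0.81 ± 0.046 and 0.70 ± 0.047, and HSP90B1 by 0.52 ± 0.032 and 0.46 ± 0.032. DDIT3, a target shared with this branch, had intervals that include 0 in the same comparisons. Of 6 genes linked to CHOP, 1 was higher and 4 lower at both cytarabine doses and again with FL-Fc-DM1 at both. PMAIP1 (NOXA) was lower after cytarabine than in control, by -1.38 and -0.78, and BCL2L11 (BIM) was higher, by 1.00 and 1.01. With FL-Fc-DM1 against cytarabine, PMAIP1 was lower by -0.44 and -0.49 and BCL2L11 by -0.40 and -0.46. The death receptor gene TNFRSF10B was lower there by -0.27 and -0.30.

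DDIT4 and SESN2 are known p53 targets too, and 20 further p53 targets were listed beside them. With cytarabine, 14 of the 20 rose and 3 fell at 0.5 µM, and 15 rose and 3 fell at 1 µM. For this list and the hypoxia list below, the shares over all tested genes were 38% and 39.3% higher and 35.2% and 36.6% lower. CDKN1A, the cell cycle inhibitor p21, rose from 283.5 ± 9.03 to 948 ± 12.7 and 1058 ± 21.6 CPM, MDM2, the p53 ligase, from 293 ± 10.6 to 916 ± 7.48 and 1124 ± 48.9 CPM, and TP53INP1, an autophagy and death regulator, from 71.7 ± 1.15 to 400 ± 8.87 and 529 ± 11.6 CPM. With FL-Fc-DM1, 14 fell and 1 rose at 0.5 µM and 12 fell and 1 rose at 1 µM. For both lists the shares over all tested genes were then 22.8% and 22.2% lower and 22% and 23.5% higher. TP53INP1 fell by -0.92 ± 0.042 and -0.82 ± 0.041 and the cyclin gene CCNG1 by -0.32 ± 0.038 and -0.49 ± 0.038, whereas CDKN1A was not called (-0.023 and -0.070, edgeR adjusted p = 0.544 and 0.0531). The part of p53 in the levels of DDIT4 and SESN2 was not tested. Of 10 tested hypoxia targets, another class that includes DDIT4, 4 rose and 4 fell at 0.5 µM and 6 rose and 3 fell at 1 µM, with NDRG1 up by 0.74 and 0.80 and PDK1 down by -0.86 and -0.98. With FL-Fc-DM1, 1 rose and 3 fell at each dose, among them VEGFA by -0.67 and -0.61 and NDRG1 by -0.28 and -0.11, while the glucose transporter gene SLC2A1 rose by 0.40 and 0.25.

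Around mTORC1, of 30 tested regulators other than DDIT4 and SESN2, 12 rose and 8 fell at 0.5 µM cytarabine and 14 rose and 9 fell at 1 µM, where 38% and 39.3% of all tested genes were higher and 35.2% and 36.6% lower. EIF4EBP1, the translation repressor that mTORC1 switches off and a known ATF4 target, fell from 147 ± 7.54 to 46.4 ± 0.982 and 42.8 ± 3.71 CPM. MLST8, a subunit of the complex, fell by -1.27 and -1.32, and LAMTOR1, which anchors it to lysosomes, rose by 0.80 and 0.54. FL-Fc-DM1 gave 9 higher and 5 lower at 0.5 µM and 10 and 6 at 1 µM. Here 22% and 23.5% of all tested genes were higher and 22.8% and 22.2% lower. MTOR, the kinase itself, was up by 0.37 ± 0.052 and 0.29 ± 0.052. The GTPase gene RRAGB and the GATOR2 subunit gene WDR59 were down by -0.48 and -0.33 at 0.5 µM and -0.63 and -0.24 at 1 µM. In the authors' deposited annotation, DDIT4 and SESN2 are among 144 genes of mTOR signaling, and ATF3 and DDIT3 among 54 of the leucine zipper family.

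Among 9 tested genes of asparagine and glutamine handling, 2 rose and 7 fell at either cytarabine dose. The shares over all tested genes were 38% and 39.3% higher and 35.2% and 36.6% lower. The glutamine transporters SLC38A2 and SLC1A5 fell by -2.01 and -2.12 at 0.5 µM and -1.88 and -2.18 at 1 µM, and ASRGL1, an asparaginase, rose from 4.04 ± 0.156 to 29.9 ± 0.634 and 23.5 ± 1.04 CPM. With FL-Fc-DM1, 4 of the 9 rose and 1 fell at each dose, where 22% and 23.5% of all tested genes were higher and 22.8% and 22.2% lower. NARS1, the asparaginyl-tRNA synthetase, rose by 0.34 ± 0.035 and 0.30 ± 0.035 and SLC1A5 by 0.31 ± 0.051 and 0.46 ± 0.052, and GLUL, glutamine synthetase, differed by -0.19 at 0.5 µM and 0.11 at 1 µM, both called. ASNS had no call in the same comparisons.

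Of 11 glutathione genes around CHAC1, 5 rose and 4 fell at 0.5 µM cytarabine and 7 rose and 4 fell at 1 µM. For this list and the receptor list below, the shares over all tested genes were 38% and 39.3% higher and 35.2% and 36.6% lower. GGT1 and GGT5, which cleave glutathione outside the cell, rose from 12.7 ± 1.48 to 43.9 ± 2.22 and 37.9 ± 6.47 CPM and from 4.38 ± 0.196 to 22.0 ± 4.16 and 13.0 ± 0.824 CPM, and GGCT, a cyclotransferase, fell by -0.78 and -1.14. FL-Fc-DM1 gave 4 higher and 3 lower at 0.5 µM and 7 higher and 3 lower at 1 µM. For both lists the shares over all tested genes were then 22% and 23.5% higher and 22.8% and 22.2% lower. GGT5 fell by -1.41 ± 0.14 and -2.60 ± 0.19, GGT1 by -0.53 ± 0.094 and -0.81 ± 0.10, and GSR, glutathione reductase, rose by 0.39 ± 0.044 and 0.36 ± 0.046. Of 7 tested receptors and binders of ADM2 and activins, 3 rose and 1 fell at 0.5 µM cytarabine and 3 rose and 0 fell at 1 µM. The receptor gene ACVR1 rose by 0.80 and 0.71 and the activin binder FSTL3 by 0.92 and 0.93, and ACVR2B was lower by -0.45 at 0.5 µM and, at -0.20, not called at 1 µM. With FL-Fc-DM1, ACVR2B was the 1 gene of the 7 called at 0.5 µM and at 1 µM, falling by -0.45 ± 0.12 and -0.43 ± 0.12 (edgeR, Benjamini-Hochberg adjusted p = 0.00438 and 0.00521).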

How the data were processed

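The authors deposited a table of 15 libraries with estimated counts per gene, which are not normalized, and TPM values, which are their own. Of the counts 9.62 to 11.3% were not whole (tolerance 0.01), and they were rounded. Per the labels' protocols, poly(A) RNA was fragmented, primed at random, amplified and read by Illumina sequencing. Per the submitters' processing notes the tools were StringTie 1.3.1, HISAT2, edgeR, DESeq2 and fastp 0.18.0, with no role given. Build, annotation and strand setting of the counting were not stated.

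Here, edgeR 4.0.16 (R 4.3.3) fitted 1 quasi-likelihood model with TMM scaling over all 5 groups to 12355 genes that passed filterByExpr (minimum count 10, minimum total 15). Benjamini-Hochberg adjustment covered all tested genes, with calls at an adjusted p under 0.05. CPM is counts per 1000000 of a library's total over tested genes after TMM scaling. Counting intervals are exact, at 95%, and cover counting error only. Libraries of a group differed by more than sampling noise. Replicate numbers did not pair the libraries. The members, lists and tests were chosen with earlier results of these data known. Named genes were all members, their paralogs, ATF4, the eIF2α kinases and phosphatases, from each other list the 3 genes of smallest p at 0.5 µM cytarabine against control and the 3 of smallest p for FL-Fc-DM1 against it, and the 8 genes of nearest profile. Other genes in the text (EIF2S1, EIF2B1 to EIF2B5, GCN1, IMPACT) belong to a list named in full. Alternatives were DESeq2 1.42.0, limma voom (limma 3.58.1), no filter, only the groups compared, a replicate block, a 2-fold minimum, the deposited TPM and leaving out each library. The fit was tested on simulated data.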

Additional observations from a re-analysis of the deposited data

How the results depend on the processing

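Few counts limit CHAC1, STC2, INHBE and ADM2 in treated cells, with at most 29 counts in a library. The falls of DDIT4 with FL-Fc-DM1 at both doses and of SESN2 at 0.5 µM, and the rise of ATF3 from 0.5 to 1 µM cytarabine, were called under every other tool, filter and set of libraries run, but the falls of DDIT4 and SESN2 are under the 2-fold minimum. Of 952 recomputed member values in tested comparisons, 853 were counted as unchanged, and of 396 recomputed counts of calls 362 stayed within 1.5 times. Unchanged means the same direction and call. Deposited TPM values have no call and counted as unchanged when they differed by less than the larger SD of the compared groups. For uncalled results this held even with the other sign. The fit limma voom with a weight per group was chosen after seeing the data, because libraries of the 1 µM groups spread more.

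With only the compared groups fitted, 0 members were lower at 1 than at 0.5 µM cytarabine, and between the FL-Fc-DM1 groups 1 was higher and 0 lower. With limma voom 0 were lower in both dose comparisons. With a 2-fold minimum, FL-Fc-DM1 against cytarabine gave 1 member lower at each dose, the FL-Fc-DM1 groups 2 higher and 0 lower, and the other ATF4 targets 0 higher and 1 lower at 0.5 µM and 0 higher and 0 lower at 1 µM. With no filter 1 member was higher with FL-Fc-DM1 at 1 µM. A model with the replicate number as a block left the members called unchanged in number (4 lower at 0.5 µM and 3 at 1 µM with FL-Fc-DM1), while the numbers did not pair the libraries (correlations of deviations from -0.049 to 0.042). The cause of these shifts was not tested.

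On leaving out 1 library at a time, members higher at 1 than at 0.5 µM cytarabine numbered 1 to 4 and lower 0 to 1, lower with FL-Fc-DM1 at 0.5 µM 2 to 4, at 1 µM 1 to 4 with 0 to 1 higher, and between the FL-Fc-DM1 groups 2 to 4 higher and 0 to 2 lower. Other ATF4 targets lower at 0.5 µM cytarabine numbered 35 to 36, and with FL-Fc-DM1 16 to 18 higher and 7 to 8 lower at 0.5 µM and 14 to 17 higher and 6 to 8 lower at 1 µM. Of uncalled values, 15 had the other sign in some alternative. On leaving out libraries, the log2 fold change for FL-Fc-DM1 at 0.5 µM ran from -0.142 to 0.215 in STC2, -0.637 to 0.609 in INHBE and -0.074 to 0.102 in DDIT3, and at 1 µM from -0.101 to 1.526 in STC2, -4.606 to 0.295 in INHBE, -0.112 to 0.097 in DDIT3, -0.108 to 0.118 in ASNS and -0.212 to 0.018 in ATF3. INHBE ran from -0.257 to 0.494 between the cytarabine doses, and between the FL-Fc-DM1 groups INHBE ran from -4.722 to 0.496, DDIT4 from -0.021 to 0.121 and ASNS from -0.15 to 0.062. The low ends for INHBE, -4.606 and -4.722, come from leaving out replicate 2 of the higher-dose FL-Fc-DM1 group, which is then at 0 counts, so they are not fold changes, and a call of INHBE in the upper ends of the counts lower is void. The difference between doses in the change of ADM2 ran from -0.083 to 0.945. With limma voom STC2 gave -0.023 and DDIT3 -0.007 at 0.5 µM, and with no filter ASNS gave 0.009 at 1 µM. The deposited TPM gave 0.033 for ASNS between the cytarabine doses and 0.935 for STC2 between the FL-Fc-DM1 groups, where the counts gave -0.168 and -0.515.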

Other observations

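The deposited TPM of STC2 did not keep 1 ratio to its counts. Replicate 3 of FL-Fc-DM1 at the higher dose had 12 counts and 2.413 TPM, or 0.201 TPM per count, where the other libraries had 0.0273 to 0.0637 TPM per count. The TPM of STC2 in that library is therefore high beside its count, and the ratio of group means in TPM put STC2 at a log2 difference of 3.02 between the FL-Fc-DM1 and cytarabine groups of 1 µM, where the counts gave 1.05 with a 95% interval that includes 0.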
